A study of Homo sapiens with 26 samples.

Results

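Binding of the glucocorticoid receptor (GR) to chromatin was compared between A549 cells given budesonide and cells left unstimulated, all of them infected with the control adenovirus Ad-GFP. A549 is an established human lung carcinoma line with features of alveolar type II epithelium. Budesonide is an inhaled synthetic glucocorticoid, and it was used at 300 nM for 1 h (Bud); unstimulated cells (NS) received neither budesonide nor interleukin-1β. Cells of both groups carried the adenovirus with green fluorescent protein and had been kept overnight in medium without serum. Whether NS cells were given the solvent of budesonide is not given in the labels. Chromatin immunoprecipitation with sequencing (ChIP-seq) with a GR antibody gave 2 libraries per group from 2 independent experiments, so 4 of the 26 libraries of the series belong to this comparison. The deposited table holds 1 value per region and group, and all 10740 of its 10740 regions, each 400 bp long, were described. The same regions had Bud and NS values from 4 other libraries, of cells infected with Ad-IκBαΔN, a virus whose insert blocks NF-κB, and these values are given for some of the regions named.

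Signal here means the mean coverage per base of a region, obtained as 2 to the power of the deposited value, less 1. A difference is the log2 value in Bud cells minus that in NS cells, a difference of log2(signal + 1), so a fold at low signal is understated. With 1 value per group no difference has a replicate check, and regions are called higher or lower only when the difference is at least 2-fold. The authors chose the regions and gave each the class increasing, unchanged or decreasing. The sources used here do not say how either was done, and library depth is unknown. As its linked gene, a region got the protein-coding one whose transcription start site (TSS) was closest and within 100 kb, which need not be the gene it acts on. The lead region of a gene is its linked region with the highest signal. ChIP signal at selected regions does not measure expression, so it gives no check of the cell type.

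GR, the product of NR3C1, is a nuclear receptor that chaperones hold mostly in the cytoplasm until a glucocorticoid binds it. The bound receptor moves to the nucleus and occupies enhancers and promoters, often at a glucocorticoid response element (GRE), an imperfect palindrome whose arms are separated by a short spacer. In airway epithelium its targets include inhibitors of inflammatory signalling, of MAP kinases and of growth factor receptors, as well as genes of metabolism and of the circadian clock.

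The first sequences shown are from regions with some of the highest differences and from lead regions of well-known glucocorticoid targets, and they show what the GRE core looks like where GR signal was high with budesonide. All sequences are from hg38, 5′ to 3′, and capitals mark the GRE core GNACANNNTGTNC, which reads the same in form on both strands. Its offset from the middle of the region was 32.5 bases at PRR20G, 4.5 at DDIT4, 0.5 at PTPN1, -1.5 at PER1, -24.5 at KLF9, 4.5 at TFCP2L1 and -0.5 at GADD45B. The DDIT4 match lies within the complete palindrome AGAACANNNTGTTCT with 0 mismatches in its 12 fixed bases. The best stretches of the PER1 and GADD45B regions had 1 mismatch, and those of KLF9 and TFCP2L1 had 2 and 3.
PRR20G, chr3:127304439-127304479, plus strand: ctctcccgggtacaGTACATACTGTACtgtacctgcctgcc
DDIT4, chr10:72248969-72249009, plus strand: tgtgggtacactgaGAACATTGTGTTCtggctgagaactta
PTPN1, chr20:50415777-50415817, plus strand: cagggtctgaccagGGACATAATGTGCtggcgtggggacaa
PER1, chr17:8154447-8154487, plus strand: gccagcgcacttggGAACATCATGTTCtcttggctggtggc
KLF9, chr9:70420112-70420152, plus strand: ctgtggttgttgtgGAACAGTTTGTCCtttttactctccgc
TFCP2L1, chr2:121282766-121282806, plus strand: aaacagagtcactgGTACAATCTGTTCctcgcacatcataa
GADD45B, chr19:2544125-2544165, plus strand: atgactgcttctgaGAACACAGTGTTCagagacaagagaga

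For contrast, the next sequences come from regions with lower signal in Bud cells. HSPH1 is the nearest gene of 1 of the only 7 such regions that held the GRE core, in capitals. In the GRB14 sequence the capitals mark the AP-1 motif TGANTCA, and in the last pair, of which the first has no linked gene, they mark the κB motif GGGNNNNNCC, to which NF-κB binds in a stricter form.
HSPH1, chr13:31126388-31126428, plus strand: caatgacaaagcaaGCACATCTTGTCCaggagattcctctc
GRB14, chr2:164655519-164655553, plus strand: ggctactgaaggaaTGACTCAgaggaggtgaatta
Chromosome 13, chr13:65237054-65237091, plus strand: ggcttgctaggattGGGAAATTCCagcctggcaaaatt
ECE1, chr1:21294670-21294707, minus strand: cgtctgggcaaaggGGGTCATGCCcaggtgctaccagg

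GR signal was higher in Bud cells at most of the regions. The median signal was 7.58 in NS cells and 21.7 in Bud cells, and the quartiles ran from 5.38 to 10.2 in NS cells and from 6.86 to 39.7 in Bud cells. In Bud cells 6217 of all regions (57.9%) stood at least 2-fold higher, while 874 (8.14%) stood at least 2-fold lower and the other 3649 stayed within 2-fold. The median difference was 1.37. At least 4-fold higher signal was found at 3667 regions, at least 16-fold at 403 and at least 64-fold at 9. In the other direction, 57 regions passed 4-fold and 0 passed 8-fold. The region just inside the higher call had 6.49 in NS and 14.0 in Bud cells and the one just outside it 10.2 and 21.4. On the lower side these were 7.96 and 3.48, and 12.2 and 5.59.

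The log2 values of NS cells were closely spaced, with an SD of 0.63 across regions, and those of Bud cells spread widely, with an SD of 1.52. The plot of NS against Bud signal accordingly shows a tall cloud with a dense upper and a dense lower part. The counts depend on the scale the authors gave each group. After both groups were shifted to the same median, a shift of 1.41, 2614 regions were higher and 3500 lower. With the authors' unchanged class set to the same median, a shift of 1.92, these were 1545 and 4374. The place of a region, class or list relative to the others does not change under such a shift, and list medians are therefore read below against the 1.37 of all regions.

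**Figure D1:**
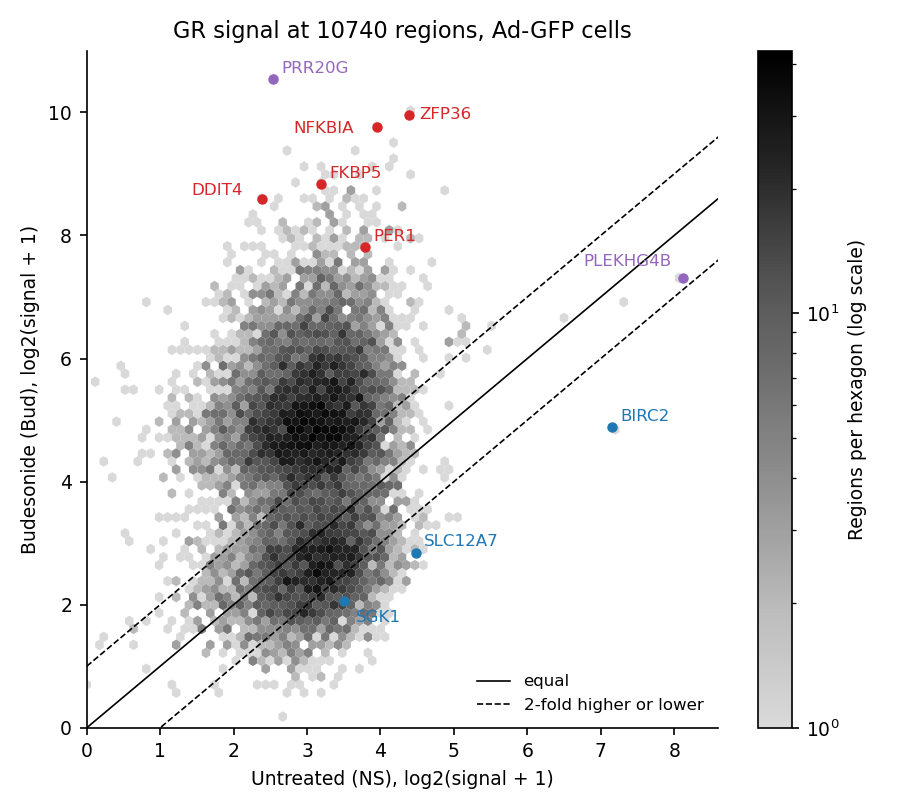
GR signal of 10740 regions in untreated (x) and budesonide-treated (y) Ad-GFP cells, both as log2(signal + 1); hexagons are shaded by number of regions, the solid line marks equal signal and dashed lines a 2-fold difference. Named points are lead regions or regions nearest to the gene, such as DDIT4 with 4.23 in NS and 386 in Bud cells and BIRC2 with 141 and 28.5.

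PRR20G was the nearest gene of the region whose Bud signal and difference both exceeded those of every other region, at 258-fold. Its Bud signal of 1492 stood beside 1194 in Ad-IκBαΔN cells, and its NS signals were 4.79 and 6.46. A region 58.8 kb upstream of SLC45A1 on chromosome 1 went from 5.77 to 676, and a second region of the same stretch, 128 kb from that gene and so not linked to it, from 2.92 to 212. These regions stand out from others by Bud signal. Their NS signals were all below the median of 7.58, and those of 4.79 and 2.92 were below the lower quartile of 5.38. The region with 2.92 had 7.02 and 167 in Ad-IκBαΔN cells, a difference of 4.39 in place of 5.77. Further regions of the highest differences were nearest to DDIT4, an inhibitor of the growth kinase mTOR complex, with 4.23 and 386, to DCBLD2, a membrane receptor-like protein, with 3.71 and 326, and to DYNC2I1, a subunit of a ciliary dynein, with 6.93 and 536. An intron of NOTCH2, a receptor for cell contact signals, had 0.820 and 119. Its fold of 66.1 rests on that low NS signal, since Ad-IκBαΔN cells had 5.52 and 86.1, a difference of 3.74 in place of 6.05. ARRDC2 (3.70 and 304), MICAL2 (2.70 and 235), TTI1 (4.75 and 363) and PTPN1 (7.84 and 551) belonged to the 12 highest too, as did a region of NFKBIA, described below, and an intron of ZBTB16, a classic glucocorticoid-induced transcription factor, whose nearest TSS is that of NNMT (6.40 and 469).

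The 403 regions at least 16-fold higher had a median signal of 5.52 in NS cells and 152 in Bud cells. All 403 were also at least 2-fold higher in Ad-IκBαΔN cells, but only 166 (41.2%) reached 16-fold there, where the median was 7.97 in NS and 125 in Bud cells. Of the 403, 8 lay within 1 kb of a TSS, 116 lay over 100 kb from any, and 252 belonged to the unchanged class. Over all 10740 regions these counts were 404, 3166 and 3411, so the share over 100 kb was near that of all regions. Without a linked gene, the leading regions were nearest to MSN (4.89 in NS, 378 in Bud), in an intron of CCNY (3.94 and 283) and in an intron of TBC1D8 (7.33 and 389).

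Classic glucocorticoid targets were a list of 30 genes known from many cell types, chosen with earlier results of these data known. Of these, 28 had at least 1 linked region. TSC22D3 and CDKN1C had none. Among their 102 regions 78 passed 2-fold upward and 4 downward, shares to be read against 57.9% and 8.14% of all regions, and the median difference was 2.49. Their median signals were 7.75 in NS and 47.3 in Bud cells, against 7.58 and 21.7 over all regions. Lead regions are chosen by their signal, so their counts are read against the lead regions of all 4261 linked genes, of which 63.5% were higher and 8.17% lower. Of the 28 lead regions of classic targets 24 were higher, 20 by at least 8-fold, with NS signals between 2.86 and 19.9. This background is not matched for region number: 2599 of the 4261 genes had exactly 1 region, but only 5 of the 28 classic targets. A gene with more regions has more from which its lead is taken.

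Several targets had a set of regions that were all higher. FKBP5, which encodes a co-chaperone that lowers the hormone affinity of GR, had 5 of 5, with Bud signals of 54.7, 20.8, 455, 32.4 and 199 against 8.45, 3.98, 8.10, 10.7 and 8.62 in NS cells. Its lead region, in an intron, held no GRE core. PDK4, a kinase that restrains pyruvate oxidation, had 6 of 6, with Bud signals from 29.1 to 137, and FGD4, an activator of the GTPase CDC42, had 7 of 7, from 24.3 to 167. PER1, a clock gene, had 2 of 2, in introns, at 6.96 and 12.8 in NS and 102 and 224 in Bud cells. At MAOA, which encodes monoamine oxidase A, the regions had 6.38, 5.67 and 4.91 in NS and 56.8, 20.0 and 51.5 in Bud cells.

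Other targets combined strongly higher regions with regions that stayed within 2-fold or were lower. DUSP1, a phosphatase that switches off MAP kinases, had 8 linked regions, of which 5 were higher and 1 lower. The 3 just upstream of its TSS, at 0.115, 1.32 and 4.58 kb, had 15.6, 9.38 and 9.08 in NS and 83.4, 287 and 161 in Bud cells. A region 12.9 kb downstream went from 10.9 to 4.73, but had 9.82 and 9.14 in Ad-IκBαΔN cells. DDIT4 had 4 higher regions of 8, and all 4 were upstream of the TSS, with Bud signals of 386, 249, 53.8 and 70.1. The other 4 were downstream, with differences from -0.61 to 0.98. The one at 0.98 went from 11.1 to 22.9, just short of 2-fold. In Ad-IκBαΔN cells it had 9.40 and 30.9, a difference of 1.62. The downstream differences of the remaining regions were 1.05, 0.07 and -0.17 there, so the split by side was less clear in those cells. ZFP36, whose product destabilises inflammatory mRNAs, showed 997 in Bud cells 2.89 kb downstream of the TSS and 76.6 at 5.09 kb upstream. A region 3.94 kb upstream had 28.6 in NS and 18.4 in Bud cells, but 11.3 and 22.6 in Ad-IκBαΔN cells. At NFKBIA, which encodes the NF-κB inhibitor IκBα, 7 of 9 were higher, led by an exon region with 14.5 and 871.

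A few classic targets did not stand higher at any linked region. SGK1, a kinase that promotes sodium uptake, had 2 linked regions, with 7.42 and 10.3 in NS and 3.60 and 3.18 in Bud cells. SCNN1A, a subunit of the epithelial sodium channel, had 1, with 9.03 and 3.68 (8.25 and 8.76 in Ad-IκBαΔN cells), and CRISPLD2, a secreted protein that binds endotoxin, had 1, with 5.79 and 4.30. The link to the nearest TSS limits what these values say of the genes, since a region of a classic target can lie nearer to another gene, as with the ZBTB16 intron above.

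**Figure D2:**
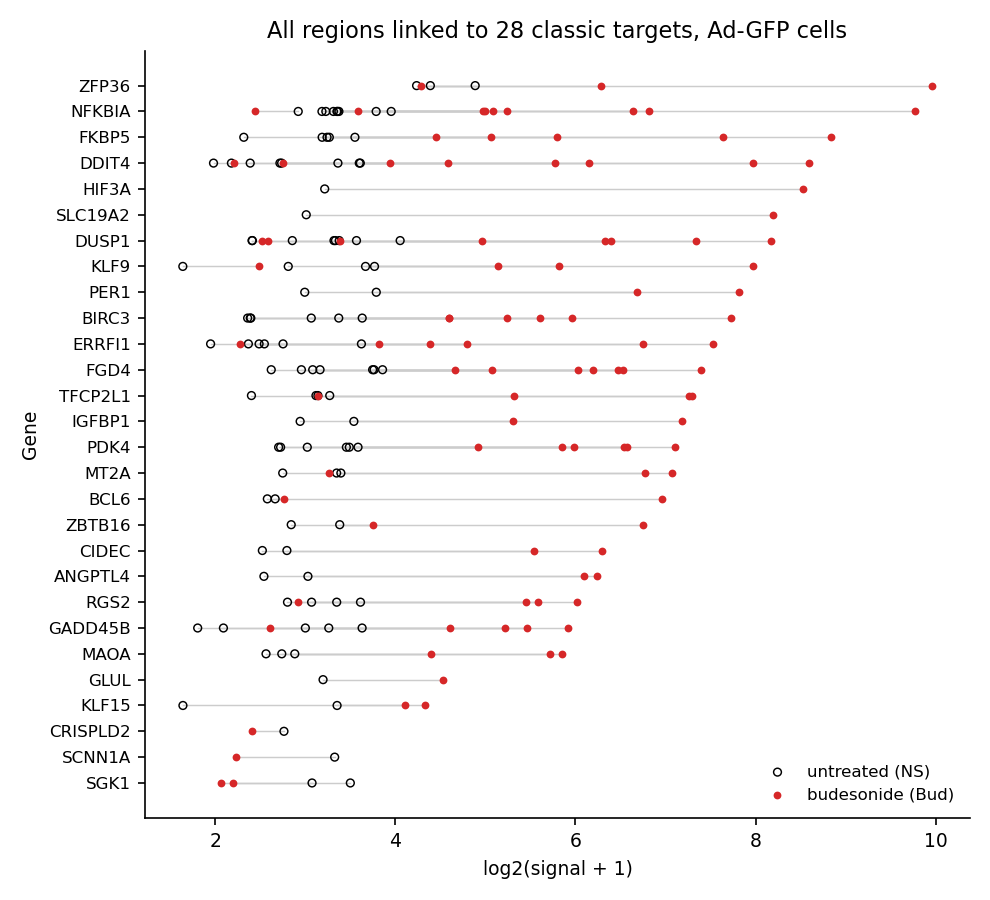
GR signal, as log2(signal + 1), of all 102 regions linked to 28 classic glucocorticoid targets (y axis), with open circles for untreated and red points for budesonide-treated Ad-GFP cells, 1 value per region and group, joined by a grey line. The genes are ordered by their highest Bud signal, from SGK1 at the bottom to ZFP36 at the top (997), and the open circles stay in a narrow band.

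Some classic targets, among them DDIT4, BIRC3, NFKBIA, ERRFI1, DUSP1 and CIDEC, also stand in lists described below. List medians therefore rest in part on the same regions. GR itself and its partners came next. Of 28 genes of GR, its chaperones and coregulators, 10 had linked regions. Of these 18 regions 14 were higher (77.8%, against 57.9% of all regions) and 1 lower, with a median of 2.36. The lead region of NR3C1, 60.3 kb upstream of its TSS, had 3.25 in NS and 8.56 in Bud cells. It was 7.35 and 7.97 in Ad-IκBαΔN cells, a difference of 0.10 against 1.17 in Ad-GFP, and the latter turned to -0.24 with a common median. HSPA8, a constitutive heat shock protein, had 3.84 and 108 at its lead region, and NCOA3, a coactivator, 10.8 and 129. The region nearest to NR3C2, the mineralocorticoid receptor, was low in both groups with 0.820 and 2.23.

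Of 52 regions of genes that brake kinase signalling, 34 were higher (65.4%) and 4 lower (7.69%), against 57.9% and 8.14% of all regions. Their median of 1.62 was -0.30 with the unchanged class centred. PTPN1, a phosphatase acting on the insulin receptor and other kinases, had 8 of its 10 regions higher. ERRFI1, an inhibitor of the EGF receptor, had 5 of 6, with 2.86 and 183 at the lead region, and DUSP10 had 5.60 and 40.6. The lowest lead regions were those of SPRY4 (7.26 and 14.7) and SPRED2 (8.29 and 5.27), both inhibitors of RAS signalling. The place of this list depended on how far a region may lie from its gene: with links limited to 50 kb and 10 kb its median was 0.10 and 0.32 below that of all regions.

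Factors of mRNA decay counted 27 higher (65.9%, against 57.9% of all regions) and 2 lower among 41 regions. Their median of 2.04 was -0.16 after quantile normalization. Of their 11 lead regions 10 were higher, against 63.5% of the lead regions of all genes, a background not matched for region number. Beside ZFP36, the lead region of ZC3H12A, the ribonuclease Regnase-1, went from 7.70 to 130, that of TOB2, a recruiter of the deadenylase complex, from 3.04 to 61.7, and that of ZFP36L1 from 5.01 to 70.7. ELAVL1, a stabiliser of mRNA, was the exception with 9.91 and 3.00, but had 4.89 and 7.35 in Ad-IκBαΔN cells. With links limited to 10 kb, which left 8 regions, this list's median was -0.14.

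Of 21 regions of clock genes 14 were higher (66.7%, against 57.9% of all regions) and 1 lower, and the median was 2.00. All 8 of these genes with a linked region had a higher lead region. Of lead regions of all genes 63.5% were higher, a background not matched for region number. PER2, a repressor of the clock, had 4.51 and 116 in an intron, BHLHE40, another repressor, 3.54 and 53.5, and NPAS2, a partner of BMAL1, 8.24 and 59.5. The lowest were CRY2 (5.30 and 18.8) and HLF (12.3 and 39.7), whose differences turned to -0.27 and -0.31 with the unchanged class centred.

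Genes of lipid and glucose metabolism had 33 of 39 regions higher (84.6%) and 0 lower, against 57.9% and 8.14% of all regions. Their median of 2.52 lay beside the 2.49 of classic targets, and with the mean untreated level of both viruses these were 2.10 and 2.37. ACSL1, which activates long-chain fatty acids, had 4.19 and 218 at its lead region. IRS1, an adaptor of the insulin receptor, had 6.29 and 166, CIDEC, a lipid droplet protein, 4.75 and 77.7, and FASN, the fatty acid synthase, 4.32 and 74.1. The lowest were ELOVL7 (8.75 and 4.16), an elongase of fatty acids, and CIDEA (10.9 and 20.9). In Ad-IκBαΔN cells ELOVL7 had 8.11 and 8.10, and CIDEA 4.28 and 19.1. Of the 39 regions 20 belonged to the authors' decreasing class, against 2984 of all 10740.

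In sodium, potassium and water transport, 16 (55.2%) of 29 regions were higher and 7 (24.1%) lower, against 57.9% and 8.14% of all regions. Their median of 1.27 turned to -0.13 with a common median. Lower regions numbered 1 with a pseudocount of 5, 3 without the lowest 25% of regions and 0 in Ad-IκBαΔN cells. SCNN1B, a subunit of the epithelial sodium channel, had 10.5 and 94.0, and KCNK1, a potassium channel, 8.51 and 103. The lead region of SLC12A7, a potassium and chloride cotransporter, had 21.3 in NS and 6.20 in Bud cells. In Ad-IκBαΔN cells its values were 17.7 and 17.7. Metallothioneins, zinc-binding proteins that glucocorticoids induce, had 5 of 6 regions higher, with 9.18 and 133 at MT2A, 7.96 and 54.2 at MT1X, 3.11 and 15.6 at MT4 and 6.78 and 18.3 at MT1A, whose difference was -0.10 with a common median.

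Growth arrest and survival genes counted 37 higher (63.8%) and 4 lower (6.90%) among 58 regions, against 57.9% and 8.14% of all regions. Their median was 2.12. BIRC3, an inhibitor of apoptosis, had 5 of 6 higher, with 4.23 and 211 at the lead region, BCL6, a repressor of transcription, 5.34 and 123, and BCL2L1, an antiapoptotic protein, 9.51 and 193. FOXO1 had 5.71 and 5.76. KLF and C/EBP factors counted 29 higher (63.0%) and 5 lower (10.9%) among 46, and the median was 1.93. KLF9, a transcription factor that limits growth, had 11.7 and 250 at its lead region, KLF6 8.19 and 136, KLF13 10.2 and 108, and CEBPD, a factor of the acute phase response, 6.11 and 186. KLF11 (14.5 and 5.99) was lower in Bud cells, and KLF10 had 13.5 and 7.97, whereas in Ad-IκBαΔN cells they had 9.33 and 11.7, and 8.43 and 13.5.

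NF-κB-related genes had the lowest list medians, and 79 of the 97 regions of the first list below belonged to the increasing class, against 4345 of all 10740. Of 97 regions linked to NF-κB-dependent inflammatory genes, 24 were higher (24.7%) and 14 lower (14.4%) and the median was -0.01. Of 47 linked to brakes of the NF-κB pathway, 16 were higher (34.0%) and 6 lower (12.8%), and the median was 0.08. The shares of all regions were 57.9% and 8.14%. With a common median the inflammatory genes and the brakes were at -1.41 and -1.32, with 56 and 27 lower regions. Lower regions of the inflammatory genes numbered 2 with a pseudocount of 5, 3 without the lowest 25% of regions and 1 in Ad-IκBαΔN cells. For the brakes these were 2, 2 and 1. CCL20, a chemokine for lymphocytes and dendritic cells, had 4.78 and 177 at its lead region, CSF3, a growth factor of neutrophils, 8.25 and 87.7, and CXCL2, a neutrophil chemokine, 6.27 and 45.7 close to its TSS. IL1B had 7.92 and 2.90 and IRF1, an interferon regulatory factor, 12.3 and 4.81. In Ad-IκBαΔN cells IL1B had 8.21 and 6.835, and IRF1 8.70 and 7.38. Among the brakes, TNFAIP3, which encodes the ubiquitin editor A20, had 3 higher and 3 lower of 9 regions, with differences from -2.01 to 2.85, and NFKBIZ (16.6 and 5.78) and NFKBIE (9.34 and 2.29) were lower. In Ad-IκBαΔN cells NFKBIZ had 8.53 and 10.2 and NFKBIE 6.67 and 4.75. Genes of AP-1 and of the immediate early response had 11 of 25 higher (44%) and 0 lower. Their median was 0.71 (-0.70 with a common median). They were led by MAFF (1.42 and 34.9) and MAFK (5.72 and 87.1), small partners of AP-1 proteins.

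Adhesion and cytoskeleton genes counted 42 higher (59.2%) and 7 lower (9.86%) among 71 regions, near the 57.9% and 8.14% of all regions. Their median of 1.26 was -0.14 with a common median. VCL, vinculin of the focal adhesions, had 8.43 and 367, ITGB1, an integrin, 7.77 and 122, and TNS2, a tensin, 10.0 and 124, whereas COL4A1, a collagen of the basement membrane, had 6.11 and 2.17. For lung epithelial genes 25 of 42 were higher (59.5%, also near the share of all regions) and 0 lower. Their median of 1.29 was -0.12 with a common median. The keratin genes KRT18 and KRT7 had 9.18 and 294, and 10.1 and 150, SLC34A2, a phosphate carrier of alveolar type II cells, 3.87 and 96.5, and FOXA1, a pioneer factor, 8.75 and 4.06. Of 26 markers of other cell types only 4 had linked regions, 5 in all, of which 1 (COL1A1, 8.34 and 36.2) was higher, and the regions of PTPRC, PECAM1 and VWF had Bud signals of 4.91, 21.4 and 7.65. The 9 regions linked to housekeeping genes had 7 higher (77.8%) and a median of 1.99 that was -0.05 after quantile normalization. A list median above 1.37 was thus found for housekeeping genes too.

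**Figure D3:**
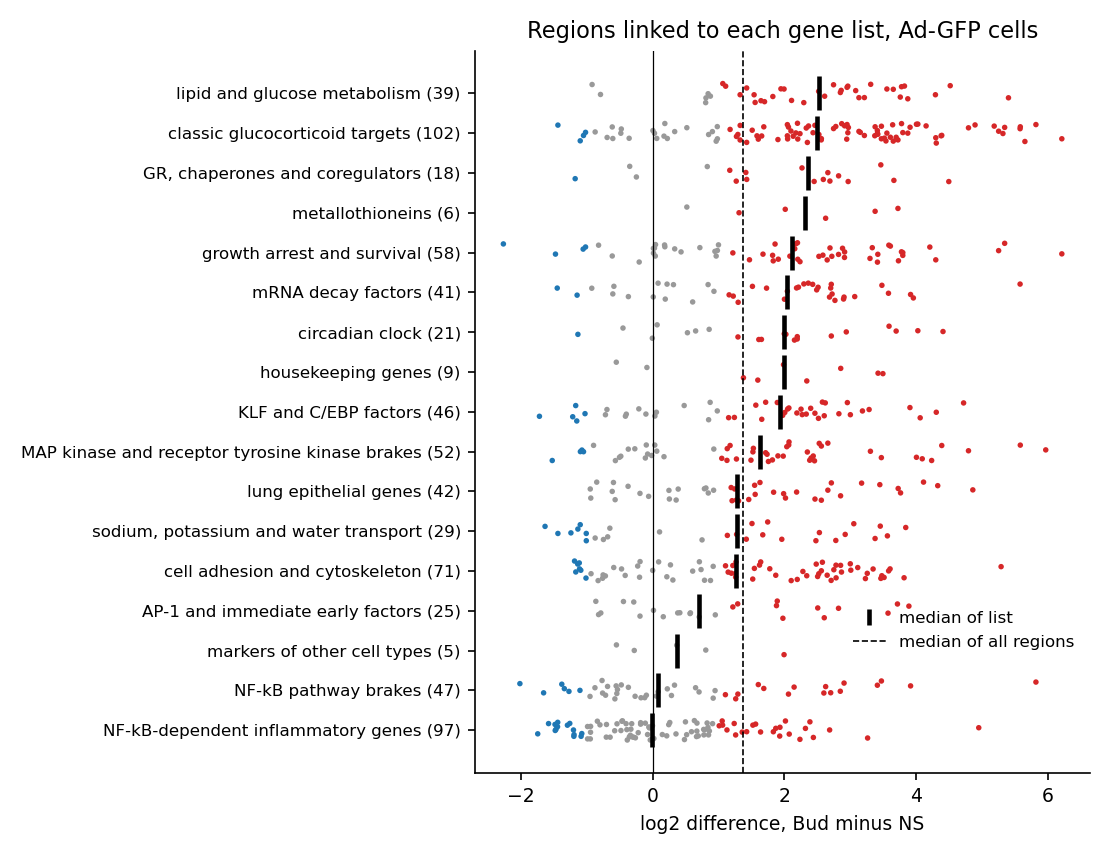
Difference in log2(signal + 1), Bud minus NS, of every region linked to each gene list, with the number of regions in brackets; red points are at least 2-fold higher, blue points at least 2-fold lower, black bars are list medians and the dashed line is the median of all regions (1.37). Medians ran from -0.01 for NF-κB-dependent inflammatory genes to 2.52 for lipid and glucose metabolism, as deposited.

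The share of regions with a GRE differed strongly along the range of differences. The GRE core was found in 11.9% of regions (95% Wilson interval 11.3 to 12.5, counting error only) and in 0.549% of windows of the same length 5 kb away. By difference, the share was 0.801% among regions at -1 or lower, 1.64% between -1 and 0, 9.05% between 0 and 1, 16.8% between 1 and 2, 16.0% between 2 and 3, 20.2% between 3 and 4 and 23.3% (19.5 to 27.7) over 4. Of the 1280 regions with the core, 1087 (84.9%) were higher and 7 lower, with a median of 2.04. The median of the 9460 regions without it was 1.21, so most higher regions, 5130 of 6217, held no such core. The core lay within 50 bases of the centre in 93.4% of the regions that had it, a stretch that makes up 25% of a region, and its median distance was 10.5 bases.

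For the complete palindrome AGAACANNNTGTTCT, the differences were alike up to 2 mismatches and fell from 3 to 5. Regions whose best stretch had 0, 1 or 2 mismatches had medians of 2.10, 2.00 and 2.03, those with 3 had 1.71, those with 4 had 1.02 and those with 5 had 0.12. Of the 44 regions with 0 mismatches 39 were higher and 0 lower, and 0.410% of regions but 0.0186% of distant windows matched that well. Regions without the core could also have high Bud signal, as the lead regions of ZFP36 and DUSP1 with 997 and 287. Of 28 lead regions of classic targets 8 held the core.

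The κB motif went the opposite way. It is short and common, being present in 52.0% of regions and 37.9% of distant windows, and it can overlap the KLF motif GGGCGG. Its share was 75.5% (72.6 to 78.2) among regions at -1 or lower and 40.5% between 1 and 2. Regions with it had a median of 0.71 and those without it 1.80. Among regions with the GRE core the medians were alike, 2.03 with and 2.04 without the κB motif, whereas among regions without the core they were 0.45 and 1.74. The motif also differed between the authors' classes, with 69.7% in the increasing, 47.3% in the unchanged and 31.6% in the decreasing class. Within the increasing class it was in 76.4% of lower regions and in 610 of 953 higher ones, and within the unchanged class in 75.2% and 42.3%. The motif, the class and the choice of regions cannot be told apart.

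Among motifs of factors that often share sites with GR, those of AP-1 and C/EBP varied less. The AP-1 motif was in 31.1% of regions against 12.5% of distant windows, and in 25.6% to 35.7% of the regions of each step of difference. The single GRE arm TGTTCT, which also forms part of the complete palindrome, ran from 26.8% in the lowest step to 52.6% in the highest. FOXA (TGTTTAC) ran from 9.15% to 17.1%, while C/EBP (TTGCNNAA) stayed between 28.4% and 31.1%. A match is a stretch of letters and shows no bound factor. The median GC content of the steps lay between 43.8% and 47.3%.

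**Figure D4:**
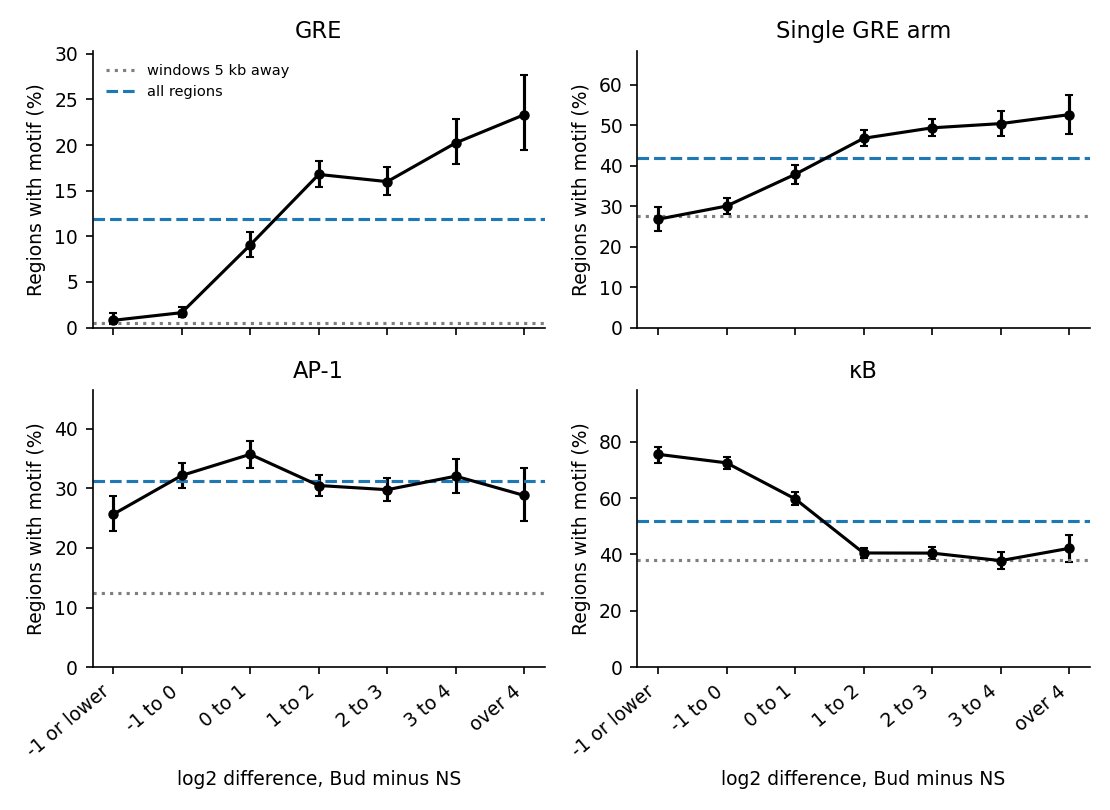
Percent of regions that hold the GRE core, the single GRE arm, the AP-1 motif or the κB motif (y) by step of the difference, Bud minus NS in log2(signal + 1) (x); bars are 95% Wilson intervals for counting error, the dashed line is the share of all regions and the dotted line that of windows 5 kb away. The GRE core runs from 0.801% in the lowest to 23.3% in the highest step and the κB motif from 75.5% to 42.2%.

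The authors' classes, which name a trend not defined in the sources used here, differed in the budesonide comparison. In the increasing class 953 of 4345 regions were higher and 721 lower, and the median was -0.06. The unchanged class had 2633 higher and 113 lower of 3411, with a median of 1.99, and the decreasing class 2631 and 40 of 2984, with 2.08. Within the increasing class 121 of 238 regions with the GRE core were higher, with a median of 1.09, against 832 of 4107 and -0.11 without it.

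Medians differed less by position than by class. The 404 regions within 1 kb of a TSS had 175 higher and 50 lower and a median of 0.49, against 1.27 at 1 to 10 kb, 1.38 at 10 to 100 kb and 1.46 farther away. But 213 of the 404 belonged to the increasing class, against 4345 of all 10740. Within the unchanged class the medians were 1.82 near and 2.01 away from a TSS, and within the decreasing class both were 2.08. Within the increasing class they were -0.22 and -0.04. Near a TSS 18.8%, 68.5% and 77.1% of the increasing, unchanged and decreasing class were higher. Away from a TSS these shares were larger, at 22.1%, 77.6% and 88.4%. The 3 highest differences near a TSS, after that of NFKBIA, were at an intron region at DECR1, a mitochondrial reductase of fatty acid oxidation (8.43 in NS, 507 in Bud), ZFAND5, a zinc finger protein tied to protein breakdown (8.91 and 504), and SLC19A2, a thiamine carrier (7.06 and 291). The next 4 had Bud signals from 91.3 to 235. Regions with 4 or more others within 20 kb had a median of 1.80 (317 of 467 higher), against 1.20 for regions with 0 others.

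Genes with many linked regions showed the range within 1 locus. TCIM, a regulator of Wnt signalling, had 16, of which 11 were higher and 1 lower, from -1.40 to 4.29. ZMYND8, a reader of acetylated histones, had 9 of 9 higher, with a lowest Bud signal of 17.4 and a highest of 422. SMAD3, the signal carrier of TGF-β, had 6 of 13 higher and a maximum of 1.86, and EDN1, the vasoconstrictor endothelin, 10 of 12 with a maximum of 3.17. Of the 1662 genes with 2 or more regions, 496 had every region higher, 276 had none higher, and 214 had both a higher and a lower one.

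The 874 lower regions had median signals of 9.97 in NS and 3.08 in Bud cells, against 7.03 and 35.3 for the higher regions, values that follow from choosing regions by their difference. In NS cells with Ad-IκBαΔN, which did not enter that choice, the medians were 7.64 and 7.80. The lowest differences were in an intron of ECE1, which processes endothelin (13.6 and 1.06), upstream of PIK3R5, a regulator of a PI3 kinase, at -2.69 from 12.0 in NS cells, and upstream of STX11, a vesicle fusion protein (7.82 and 0.475). In Ad-IκBαΔN cells the same 3 regions had 6.31 and 2.11, 11.6 and 5.98, and 8.34 and 6.13. PMAIP1, GRB14, GATD3, KIAA2012 and RND3 completed the lowest 8, with NS signals from 5.39 to 15.5 and Bud signals from 0.135 to 1.80. All 8 belonged to the increasing class.

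Where NS signal was high, the difference was small, a dependence that arises in part because NS is subtracted. In 4 equal groups by NS value the median difference went from 2.10 in the lowest through 1.59 and 1.23 to 0.85 in the highest. Sorted instead by the NS value of Ad-IκBαΔN cells, which does not enter the difference, such groups had medians of 1.36, 1.37, 1.38 and 1.38. Telomeric repeats and an array of small RNA genes held 15 of the 30 highest NS signals. Regions at the ends of chromosomes 5, 10 and 18, which hold 53, 50 and 54 telomere hexamers, had 278, 158 and 92.3 in NS and 157, 121 and 101 in Bud cells. The 12 regions in the array of U2 small nuclear RNA genes on chromosome 17 (43233636 to 43300276, in an intron of CCDC200), whose sequences were a median of 99.7% identical, made up 12 of the 30 highest. They had 29.0 to 45.1 in NS and 62.9 to 99.4 in Bud cells. Close to BIRC2, whose product blocks cell death, a region with 1 such hexamer had 141 in NS and 28.5 in Bud cells, but 7.69 and 9.50 in Ad-IκBαΔN cells.

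NS signal also varied by chromosome. Its median was lowest on chromosome 21 (4.79) and highest on chromosome 17 (10.3), and across 23 chromosomes the medians of NS signal and of the difference had a Pearson correlation of -0.72, given as a description. Chromosome 13 had medians of 5.20 in NS and 24.1 in Bud cells, and a difference of 2.06, whereas chromosome 17 had 10.3 and 24.5, and 1.18. In Ad-IκBαΔN cells these chromosomes had NS medians of 7.19 and 8.79 and differences of 1.60 and 1.52.

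The same contrast in Ad-IκBαΔN cells, which shares no library with Ad-GFP, gave 6373 higher (59.3%) and 114 lower regions (1.06%). Across the 10740 regions the differences of the viruses had a Pearson correlation of 0.89 and a Spearman correlation of 0.89, and the Bud values one of 0.98, but the NS values only 0.29. The NS values of Ad-IκBαΔN cells were also of another form: signal times 400 was whole in 1.79% of regions, against 99.99% for the NS values of Ad-GFP cells. Their part in the low correlation was not tested. Regions share libraries, so no p is given. Higher in both were 5779 regions, which is 93.0% of those higher in Ad-GFP and 90.7% of those higher in Ad-IκBαΔN cells. Lower in both were only 60, or 6.86% of the lower regions of Ad-GFP and 52.6% of those of Ad-IκBαΔN. Of the 874 lower regions, 605 were below 0 in Ad-IκBαΔN cells, where their median signals were 7.64 in NS and 6.32 in Bud cells. Most higher regions thus passed 2-fold in other libraries too, while most of the lower ones did not. With the NS values of Ad-IκBαΔN cells as the reference, 849 regions of Ad-GFP Bud cells were at least 2-fold lower, near the 874 above. Bud signal had a lower quartile of 6.86 with Ad-GFP and 9.59 with Ad-IκBαΔN, while its medians were alike at 21.7 and 21.6. Whether the virus or the spread between libraries, NS or Bud, lies behind the gap between 874 and 114 was not tested, since each group has 1 value.

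**Figure D5:**
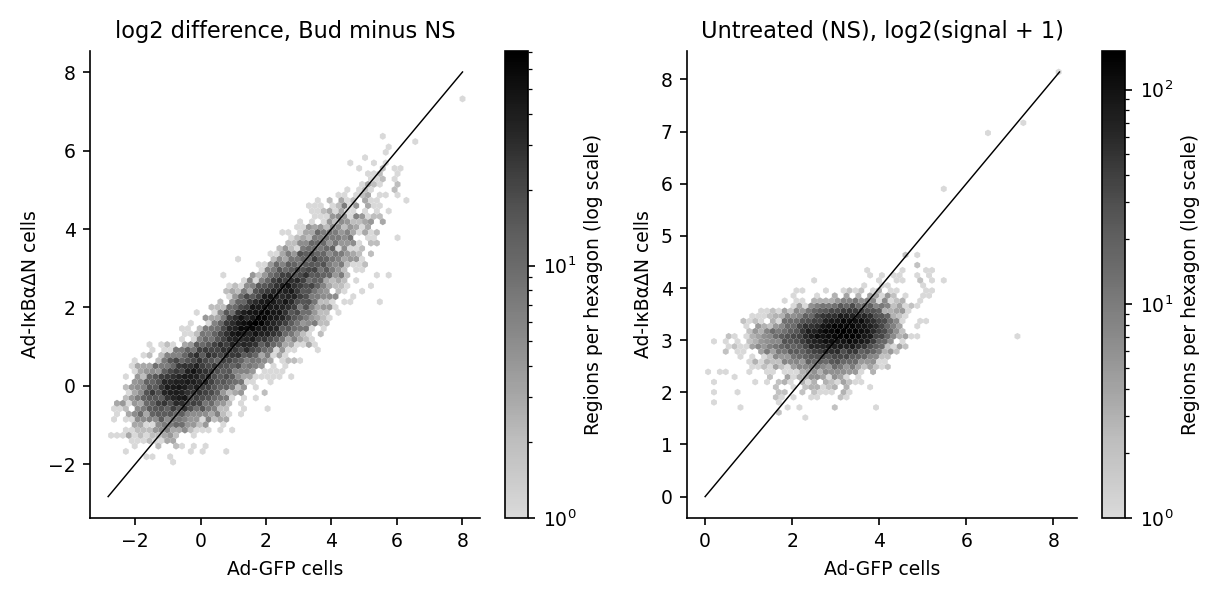
Ad-GFP (x) against Ad-IκBαΔN cells (y) for the difference, Bud minus NS in log2(signal + 1) (left), and for the untreated value, log2(signal + 1) (right); hexagons are shaded by number of regions and the line marks equal values. The differences follow the line (Pearson correlation 0.89), and the untreated values form a flat cloud (0.29), narrower in Ad-IκBαΔN (SD 0.30) than in Ad-GFP cells (SD 0.63).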

How the data were processed

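The authors deposited log2 binding intensities, 1 per region and group, with the log2 difference from the NS group of the same virus, in hg38. Per the submitters' processing notes the tools were DiffBind 3.2, MACS2 2.2.7.1, SAMtools, Bowtie2 2.4.4, FastQC 0.10.1 and bcl2fastq. The sources used here do not say how intensities were scaled or libraries combined. In Ad-GFP cells the signal times 400 was whole, within 0.01, in 10739 (NS) and 10740 (Bud) of 10740 regions, so the deposited log2 values were read as log2(coverage + 1). Gene links used GENCODE 44. With 1 value per group no test was possible. The members, gene lists and motifs were chosen with earlier results of these data known. Named were, per list, the 4 highest and 2 lowest lead regions, over all genes the 12 highest and 8 lowest differences, the genes with most regions, the highest NS and Bud signals, the 8 highest near a TSS, the 6 highest without a gene, and any classic target; a few of these are not reported here. The counting and the motif scan were tested on simulated data. Calculations used matplotlib 3.10.9, scipy 1.17.1, pandas 2.3.3 and numpy 2.4.6 in Python 3.11.15.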

Additional observations from a re-analysis of the deposited data

Results flagged for a closer look

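At the 3 regions given here the difference between Bud and NS cells was at least 2-fold in opposite directions in the 2 viruses. The difference between viruses was not tested, since each group has 1 value. A region in ZFP36L2, an mRNA decay factor, had -1.15 in Ad-GFP and 1.10 in Ad-IκBαΔN cells, with signals of 22.7 and 9.70 against 6.59 and 15.3. An intron of NIPA1 had -1.52 and 1.10, and the region 0.119 kb upstream of RELB, an NF-κB subunit, -1.08 and 1.03. In all 3 the NS signal was higher in Ad-GFP cells, and the Bud signal was higher in Ad-IκBαΔN cells.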

How the results depend on the processing

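No paired analysis was possible because the table holds 1 value per group, and the replicate block and leaving out a replicate were not run for the same reason. The alternatives on the mean untreated level of both viruses, on repeats and on chromosome medians were chosen after seeing the data. With a common median, 2614 regions were higher and 3500 lower and the median was -0.034; with quantile normalization 2678, 2754 and 0.0021, and the gap between the decreasing and increasing classes was 1.502 in place of 2.14; with the unchanged class centred 1545, 4374 and -0.55. Lower regions numbered 221 with a pseudocount of 5 and 206 without the 25% of regions with the lowest values. At a 4-fold threshold 3667 were higher and 57 lower. Using the mean untreated level of both viruses, 639 of the 874 lower and 6023 of the 6217 higher regions remained so.

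Signs turned in the following cases, whose cause was not tested. With a common median, the medians of the lists of transport, adhesion and lung epithelial genes were -0.13, -0.14 and -0.12, and NR3C1, MT1A and ACTB were at -0.24, -0.10 and -0.028. With quantile normalization, mRNA decay, transport and housekeeping lists had -0.16, -0.25 and -0.054, and HLF, MYC and ACTB -0.46, -0.42 and -0.50. With the unchanged class centred, the lists of kinase brakes, transport, adhesion and lung epithelial genes had -0.30, -0.65, -0.66 and -0.64, and NR3C1, CRY2, HLF, MT1A, EEF1A1 and ACTB -0.75, -0.27, -0.31, -0.61, -0.33 and -0.55. With links within 10 kb, mRNA decay factors had -0.14. Depth is unknown, so no limit from it can be given.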
